A study of Mus musculus with 6 samples.

Results

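The genes described here are 10 genes of mitochondrial fission, fusion and mitophagy, namely *Mfn1*, *Mfn2*, *Dnm1l*, *Fis1*, *Mff*, *Mief1*, *Mief2*, *Mtfp1*, *Pink1* and *Fundc1*. They were chosen by name among the gene names of each locus in the count table, not by their values, although earlier results of these data were known. All 10 genes were found, among 51499 loci in all, and all 10 passed the filter on low counts, which left 14499 loci to be tested. The libraries are poly(A)-selected, stranded RNA-Seq libraries of WT MEFs, fibroblasts grown from mouse embryos, that were collected 72 h after transfection with scrambled siRNA (Scr) or Yme1l siRNA. Each group had 3 independent cultures and differed from the other only in the siRNA. The WT MEFs are immortalized cells, which the labels call 3T3. The methods of the study describe WT MEFs immortalized with SV40 large T, with loxP sites at *Yme1l* that had not been recombined. Those WT MEFs were grown out as clones after transduction with Cre. The methods do not state that the siRNA libraries came from these clones. Whether a single siRNA or several were used is not given in the sources used here. The libraries held 37260605 to 45205207 counts, and p-values measure the spread between cultures of the same cells under 1 siRNA treatment per group.

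Mitochondria divide and fuse, and damaged ones are removed by mitophagy. In fission, the cytosolic GTPase DRP1, encoded by *Dnm1l*, is recruited by receptors of the outer membrane and constricts the organelle. In fusion, the mitofusins MFN1 and MFN2 join outer membranes and OPA1 joins inner membranes, and OPA1 is cleaved by the proteases YME1L and OMA1, which sets the balance with fission. In mitophagy, the kinase PINK1 marks depolarized mitochondria for removal, whereas receptors such as FUNDC1 bind the autophagy machinery directly.

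The bases upstream of *Pink1*, *Dnm1l*, *Mief2* and *Mfn2* are shown since *Pink1* had the largest change of the 10 genes, *Dnm1l* encodes the fission GTPase itself, *Mief2* has the only CACGTG, and *Mfn2* showed no detectable change. They are RefSeq promoter sequences of GRCm38, the build of the files, trimmed to the bases that lie in no annotated exon and printed 5′ to 3′ on the strand of the gene. Capitals mark GGGCGG (also as its reverse complement CCGCCC) and CACGTG. *Mfn2* and *Dnm1l* also have other RefSeq promoter windows, which are not printed. Those of *Mfn2* hold neither motif in their exon-free bases, and that of *Dnm1l* has 0 exon-free bases. *Pink1* is chr4:138326308-138326546 (239 bases, minus strand), *Dnm1l* is chr16:16359032-16359281 (250 bases, minus strand), *Mief2* is chr11:60728148-60728397 (250 bases, plus strand) and *Mfn2* is chr4:147904910-147905159 (250 bases, minus strand).
Pink1: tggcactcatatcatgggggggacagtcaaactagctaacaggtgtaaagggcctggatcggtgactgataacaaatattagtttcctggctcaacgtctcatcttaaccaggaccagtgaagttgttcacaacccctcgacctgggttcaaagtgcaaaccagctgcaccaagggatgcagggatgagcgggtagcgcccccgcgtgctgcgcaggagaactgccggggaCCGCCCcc
Dnm1l: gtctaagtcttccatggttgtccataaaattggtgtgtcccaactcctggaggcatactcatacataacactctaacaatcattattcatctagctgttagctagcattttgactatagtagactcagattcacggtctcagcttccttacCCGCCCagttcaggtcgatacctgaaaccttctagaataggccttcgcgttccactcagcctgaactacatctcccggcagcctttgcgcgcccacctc
Mief2: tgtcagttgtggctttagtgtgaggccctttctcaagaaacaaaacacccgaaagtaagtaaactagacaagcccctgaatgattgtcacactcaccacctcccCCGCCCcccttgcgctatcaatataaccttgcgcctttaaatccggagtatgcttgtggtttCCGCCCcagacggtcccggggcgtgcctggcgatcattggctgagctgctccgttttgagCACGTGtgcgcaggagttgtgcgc
Mfn2: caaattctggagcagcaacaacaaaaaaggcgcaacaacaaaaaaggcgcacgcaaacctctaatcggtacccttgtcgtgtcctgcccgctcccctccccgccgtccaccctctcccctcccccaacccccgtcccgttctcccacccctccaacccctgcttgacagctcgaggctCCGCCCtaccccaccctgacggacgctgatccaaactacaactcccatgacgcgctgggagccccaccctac

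All 10 genes matched a RefSeq promoter by symbol, with 15 windows of 300 bases. Motifs were searched on both strands, matches of different motifs could overlap, and a gene counted once however many matches it had. GGGCGG, the GC box bound by SP1, was found at 8 of the 10 genes (all but *Mtfp1* and *Fundc1*), against 38.2% of 27025 genes. The 27025 genes, with 32851 windows, were not limited to genes tested here, whereas all 10 genes were tested. The 2 sets are therefore not alike, and whether GGGCGG is more frequent at the 10 genes than at other tested genes was not tested. CACGTG, the core E-box, was found at *Mief2* alone, against 8.09% of genes. TGACGTCA (the cAMP response element, 2.03% of genes), TGATGNAAT (a composite C/EBP and ATF site, 1.08%) and TTTCNNTTT (part of the interferon-stimulated response element, 12.1%) were found at none of the 10. Genes with GGGCGG include both lower genes and genes that did not pass the test.

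*Yme1l1*, which encodes YME1L, was the target of the siRNA (XLOC_022557, chromosome 2 from 23156369 to 23199260). Positions here and below are those of the annotated gene, and the locus in which reads were counted can differ from them. Its level, in CPM (counts relative to the TMM-scaled library size, in units of 1e6), was 170.5, 171 and 170.6 in Scr replicates 1 to 3 and 31.6, 23.4 and 45 in the Yme1l siRNA replicates. Every Yme1l siRNA library lay far below the Scr libraries, and the Yme1l siRNA libraries differed more from each other than the Scr libraries did.

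In this comparison, 6 of the 10 genes were lower after Yme1l siRNA and 0 were higher (edgeR's quasi-likelihood test with Benjamini-Hochberg adjustment over all loci tested, threshold 0.05). Across all loci tested, 29.6% were lower and 28.4% were higher. *Pink1*, *Fundc1*, *Dnm1l*, *Mief2*, *Mff* and *Fis1* were lower, whereas *Mfn1*, *Mfn2*, *Mief1* and *Mtfp1* did not pass the test. All Yme1l siRNA libraries lay below all Scr libraries at the same 6 genes, and above them at 0, whereas over all loci tested 33.6% lay below and 31.9% above. The median log2 fold change of the 10 genes was -0.26 and that of all loci was 0.01. Most changes were small, and 3 of the 10 genes (*Pink1*, *Fundc1* and *Dnm1l*) exceeded the median absolute log2 fold change of all loci, 0.42. *Pink1* alone among the 10 genes was lower by at least 2-fold, as were 7.28% of all loci. In these bulk libraries, fewer cells of a type and less RNA per cell cannot be told apart.

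**Figure D1:**
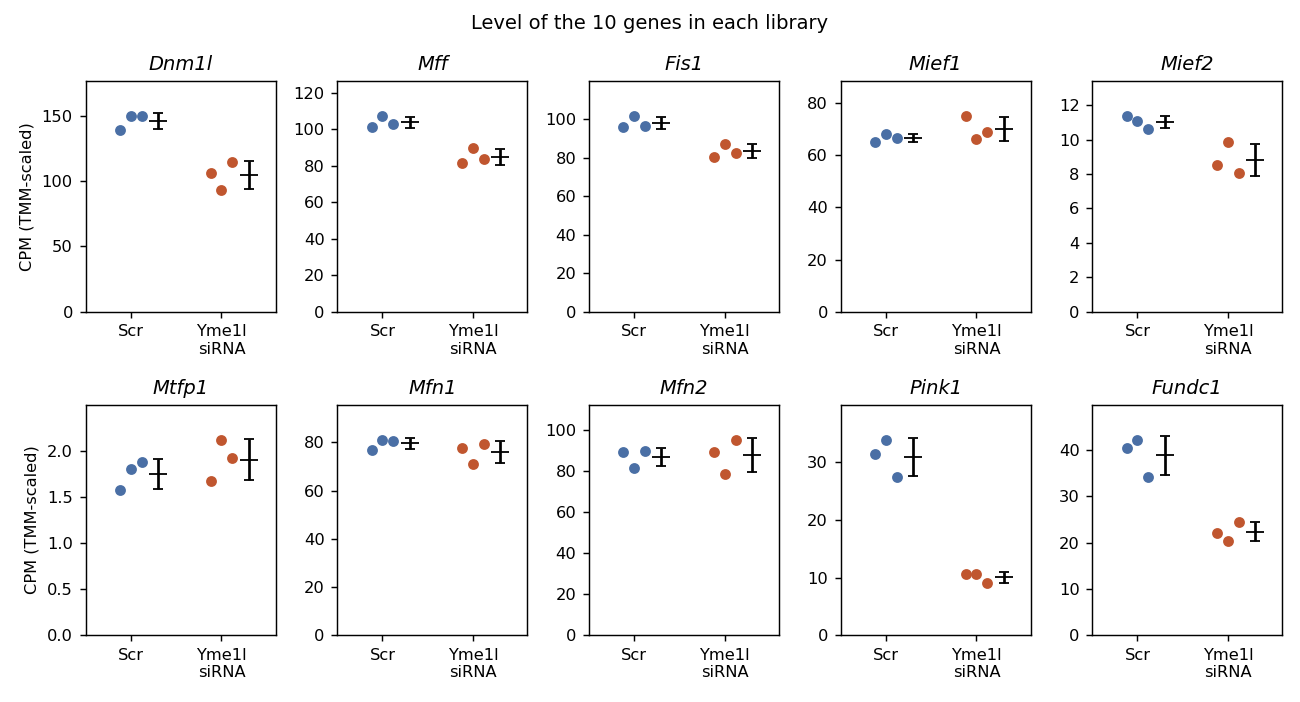
Level in CPM (TMM-scaled, axes from 0) of the 10 genes in each library, with 1 point per culture and the mean ± SD beside them (n = 3). The points of Yme1l siRNA lie below all Scr points at *Dnm1l*, *Mff*, *Fis1*, *Mief2*, *Pink1* and *Fundc1* and overlap with them at the other 4 genes.

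Fission begins with DRP1. *Dnm1l* (XLOC_018224, chromosome 16 from 16312230 to 16358959, minus strand) had 139, 149.7 and 149.6 CPM after Scr and 106, 93.3 and 114 CPM after Yme1l siRNA. The groups did not overlap, and the highest Yme1l siRNA library was well below the lowest Scr library. The Scr mean of 146 ± 6.02 CPM fell to 105 ± 10.6 CPM (mean ± SD, n = 3), which is -0.48 on the log2 scale (95% interval -0.68 to -0.28, standard error 0.09, edgeR's adjusted p = 0.00162). *Gm49521*, an antisense gene, overlaps 243 exonic bases of *Dnm1l* (4.67% of its exons), and whether strand was used in counting is not stated. The pseudogene *Gm13719* is 91.1% identical to a *Dnm1l* transcript over an alignment of 2153 bases, and its locus held only 64 counts in the 6 libraries together.

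Receptors of the outer membrane recruit DRP1. *Mff*, a tail-anchored receptor of DRP1 (XLOC_000640, chromosome 1 from 82724890 to 82752394, plus strand), had 101, 107 and 103 CPM after Scr and 81.5, 89.8 and 83.6 CPM after Yme1l siRNA. *Fis1*, a small outer membrane protein long proposed as a fission receptor (XLOC_032922, chromosome 5 from 136953275 to 136966234, plus strand), had 96.2, 102 and 96.5 CPM after Scr and 80.6, 87.3 and 82.6 CPM after Yme1l siRNA. The groups did not overlap at either gene. *Mff* changed by -0.29 on the log2 scale (95% interval -0.45 to -0.13, standard error 0.07, edgeR's adjusted p = 0.00674) and *Fis1* by -0.23 (95% interval -0.38 to -0.08, standard error 0.07, adjusted p = 0.0162). The *Fis1* call was lost without Scr replicate 2 (adjusted p = 0.0681 from edgeR) and without Yme1l siRNA replicate 1 (adjusted p = 0.0719), and also without scaling beyond library size (adjusted p = 0.0749). The authors' locus for *Mff* starts 137969 bases before the annotated gene, and its exons share 195 bases with *C430014B12Rik* on the other strand, and how much other transcripts add to its counts was not tested.

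*Mief1* and *Mief2* encode MiD51 and MiD49, a pair of related adaptors that also bind DRP1. *Mief1* (XLOC_016534, chromosome 15 from 80234018 to 80253371, plus strand) had 64.8, 68.1 and 66.5 CPM after Scr and 74.9, 66.1 and 69.0 CPM after Yme1l siRNA. Its groups overlapped, and the log2 fold change of 0.08 did not pass the test (95% interval -0.08 to 0.23, adjusted p = 0.379 from edgeR). Its locus joins it to *AC140267.1*, a short coding gene inside *Mief1* on the same strand (213 shared exonic bases), so the counts are of both. *Mief2* (XLOC_006378, chromosome 11 from 60728398 to 60732951, plus strand) had 11.4, 11.1 and 10.6 CPM after Scr and 8.50, 9.85 and 8.07 CPM after Yme1l siRNA, without overlap. It changed by -0.32 (standard error 0.11, 95% interval -0.58 to -0.07, adjusted p = 0.0343 from edgeR). This call was lost when any of 4 libraries was left out, namely Scr replicate 1 (adjusted p = 0.102 from edgeR), Scr replicate 2 (0.0852), Yme1l siRNA replicate 1 (0.112) or Yme1l siRNA replicate 3 (0.0841), and also under 2 other ways of scaling the libraries.

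*Mtfp1* encodes MTP18, an inner membrane protein that promotes fission (XLOC_007309, chromosome 11 from 4091480 to 4095445, minus strand). It was the lowest of the 10 genes, with 68, 65 and 79 counts after Scr and 74, 92 and 81 counts after Yme1l siRNA. These correspond to 1.57, 1.80 and 1.87 CPM and to 1.67, 2.12 and 1.92 CPM, which overlap. The log2 fold change was 0.12 with a 95% interval from -0.31 to 0.56 (adjusted p = 0.604 from edgeR), so that a change of the size seen at *Mff* or *Fis1* was not detectable at this depth. Counting error alone is 10.4% to 12.4% of a library's value at this gene, and at most 5.42% at the other 9 genes.

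The mitofusins showed no detectable change. *Mfn1* (XLOC_026110, chromosome 3 from 32529465 to 32579239, plus strand) had 77.0, 81.0 and 80.7 CPM after Scr and 77.8, 70.9 and 79.4 CPM after Yme1l siRNA. *Mfn2*, which also tethers mitochondria to the endoplasmic reticulum (XLOC_031416, chromosome 4 from 147873599 to 147904704, minus strand), had 89.1, 81.5 and 89.4 CPM after Scr and 89.0, 78.6 and 94.9 CPM after Yme1l siRNA. Both pairs of groups overlapped. The log2 fold change was -0.07 for *Mfn1* (95% interval -0.23 to 0.09, adjusted p = 0.446 from edgeR) and 0.01 for *Mfn2* (95% interval -0.18 to 0.21, adjusted p = 0.901). These intervals run from -14.5% to 6.74% for *Mfn1* and from -11.9% to 15.7% for *Mfn2*, so that larger changes of mRNA lie outside them.

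*Pink1* had the largest change of the 10 genes. *Pink1* (XLOC_031287, chromosome 4 from 138313409 to 138326307, minus strand) had 31.3, 33.8 and 27.5 CPM after Scr and 10.6, 10.7 and 8.99 CPM after Yme1l siRNA. Every Yme1l siRNA library lay far below every Scr library, with 379 to 470 counts against 1159 to 1357. The Scr mean of 30.9 ± 3.21 CPM fell to 10.1 ± 0.942 CPM (mean ± SD, n = 3), which is -1.61 on the log2 scale (95% interval -1.86 to -1.36, standard error 0.11, edgeR's adjusted p = 1.45e-05). This is 3.06-fold lower, and 94.0% of the loci tested had a smaller absolute change. The exons of *Pink1* contain those of 2 annotated miRNA genes on the same strand, *Mir7019* and *Gm27646*, whose reads could not be told apart from those of *Pink1*.

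*Fundc1*, the hypoxia-responsive receptor (XLOC_048829, chromosome X from 17556564 to 17572325, minus strand), had 40.3, 42.1 and 34.0 CPM after Scr and 22.0, 20.4 and 24.5 CPM after Yme1l siRNA. The groups did not overlap, although Scr replicate 3 was lower than the other Scr libraries. The Scr mean of 38.8 ± 4.24 CPM fell to 22.3 ± 2.07 CPM (mean ± SD, n = 3), which is -0.80 on the log2 scale (95% interval -1.04 to -0.56, standard error 0.10, edgeR's adjusted p = 0.000300). The authors' FPKM values, which combine the 3 libraries of a group, fell less at *Fundc1*, from 22.8 in Scr to 17.4 after Yme1l siRNA. They also fell less at *Mff* (84.4 to 76.4) and *Mief2* (5.68 to 5.21). At *Pink1*, *Dnm1l* and *Fis1* they fell by a factor close to that of CPM. The cause of the difference was not tested.

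**Figure D2:**
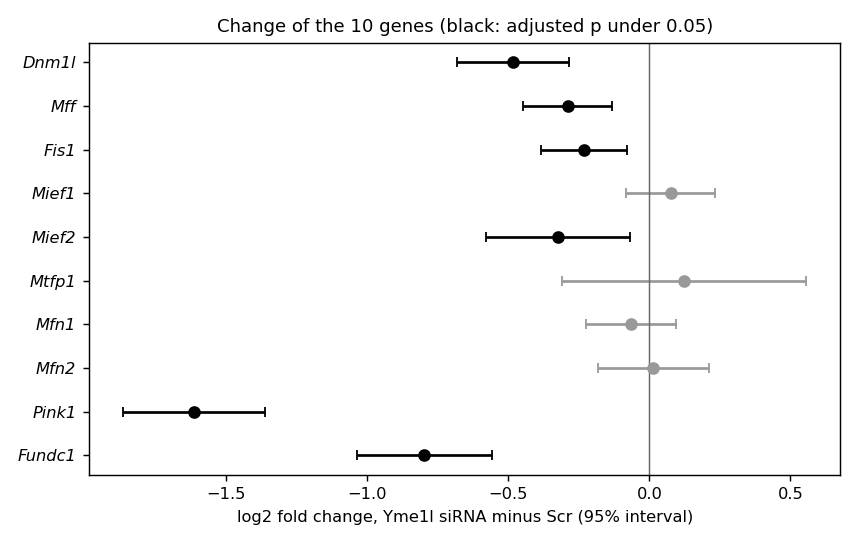
Log2 fold change of each of the 10 genes (Yme1l siRNA minus Scr, points) with its 95% interval (lines) from edgeR. *Pink1* (-1.61) and *Fundc1* (-0.80) lie farthest from 0, and the intervals of *Mief1*, *Mtfp1*, *Mfn1* and *Mfn2* (grey) include 0.

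The 10 genes did not follow one order among the Yme1l siRNA libraries. Replicate 2, which had the lowest *Yme1l1* level (23.4 CPM), was the lowest of its group at 5 of the 10 genes (*Dnm1l*, *Mief1*, *Mfn1*, *Mfn2* and *Fundc1*). It was the highest of its group at the other 5 (*Mff*, *Fis1*, *Mief2*, *Mtfp1* and *Pink1*). The coefficient of variation between cultures was from 2.43% (*Mief1*) to 10.9% (*Fundc1*) in the Scr group and from 4.08% (*Fis1*) to 11.8% (*Mtfp1*) in the Yme1l siRNA group.

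Levels between genes were compared per kb of annotated exon (CPM per kb). In the Scr group, *Fis1* was highest with 57.2 ± 1.77 CPM per kb, followed by *Dnm1l* with 28.1 ± 1.16, *Mfn2* with 16.7 ± 0.866 and *Fundc1* with 16.5 ± 1.80 (SD, n = 3 each). Next came *Mfn1* with 13.0 ± 0.364, *Pink1* with 11.6 ± 1.20, *Mff* with 10.7 ± 0.313 and *Mief1* with 8.20 ± 0.199 CPM per kb. *Mief2* with 4.06 ± 0.134 and *Mtfp1* with 1.01 ± 0.0907 CPM per kb were lowest. The ranges of *Mfn2* and *Fundc1*, of *Mfn1* and *Pink1*, and of *Pink1* and *Mff* overlapped, and the other neighbours in this order did not. After Yme1l siRNA, *Pink1* had 3.77 ± 0.352 CPM per kb and moved from rank 6 to rank 8, between *Mief1* and *Mief2*, and *Fundc1* had 9.48 ± 0.879 and moved from rank 4 to rank 5. The place of *Mff* depends on the length used, which here is 9757 bases of exon from all its transcripts. In the authors' FPKM values, which combine the 3 libraries of a group, *Mff* is second with 84.4 in Scr, after *Fis1* with 155 and before *Dnm1l* with 36.8. The order of *Mfn2*, *Fundc1* and *Mfn1* is reversed in those values, with *Mfn1* (26.2) at rank 4, *Fundc1* (22.8) at rank 5 and *Mfn2* (22.2) at rank 6.

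**Figure D3:**
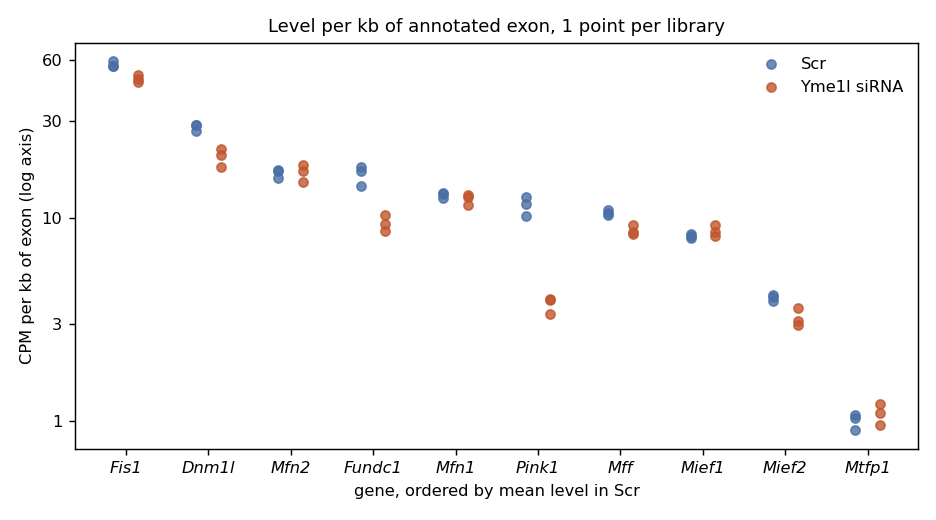
Level per kb of annotated exon (CPM per kb, log axis) of the 10 genes in each library, ordered by the mean in Scr. Levels span from *Mtfp1* (1.01 in Scr) to *Fis1* (57.2), and the separation between groups is widest at *Pink1* (11.6 in Scr and 3.77 after Yme1l siRNA).

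Ratios of counts within a library do not depend on the scaling of libraries. The log2 ratio of *Dnm1l* to *Mfn1* was 0.85, 0.89 and 0.89 after Scr and 0.44, 0.40 and 0.53 after Yme1l siRNA, a mean difference of -0.42. The log2 ratio of *Dnm1l* to *Mfn2* was 0.64, 0.88 and 0.74 after Scr and 0.25, 0.25 and 0.27 after Yme1l siRNA, a mean difference of -0.50. The mRNA of *Dnm1l* was thus lower relative to that of each mitofusin in every Yme1l siRNA library than in any Scr library. The log2 ratio of *Mief1* to *Mief2* was 2.51, 2.62 and 2.64 after Scr and 3.14, 2.75 and 3.10 after Yme1l siRNA, so that the share of *Mief1* was higher in every Yme1l siRNA library, by 0.40 in the mean. *Mff* and *Fis1* stayed close to each other, with a log2 ratio of 0.08 ± 0.012 after Scr and 0.02 ± 0.015 after Yme1l siRNA (SD, n = 3 each), which also did not overlap. The ratio of *Mfn1* to *Mfn2* overlapped between the groups, with a mean difference of -0.08 (exact two-sided permutation test, p = 0.4, and 0.4 adjusted over the 5 ratios). The other 4 ratios had p = 0.1, the smallest that an exact permutation test of 3 against 3 libraries allows, and 0.125 adjusted over the 5 ratios, so no ratio can pass a threshold of 0.05 in this design.

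**Figure D4:**
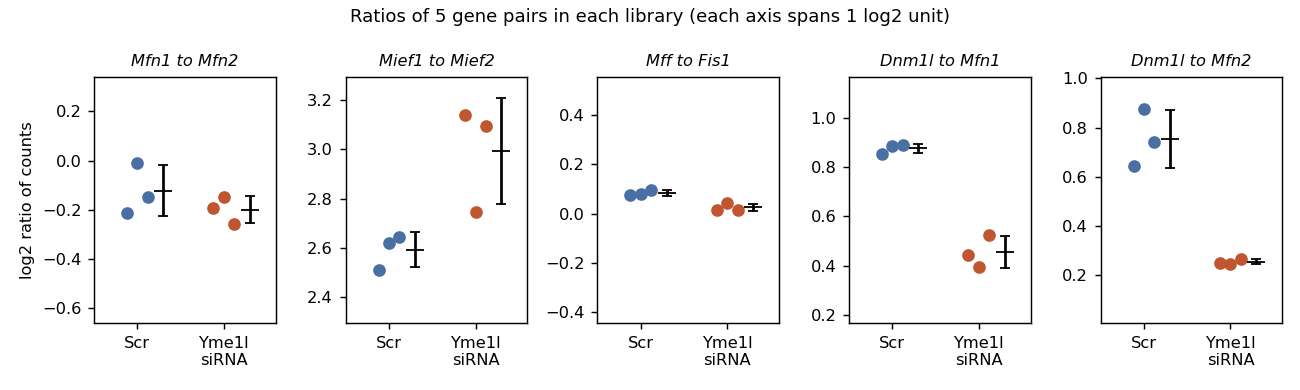
Log2 ratio of counts of 5 pairs of genes in each library, with the mean ± SD (n = 3) beside the points. Each axis spans 1 log2 unit, does not start at 0, and shows the separation of groups in all pairs but *Mfn1* to *Mfn2*.

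Other genes of the same processes were described from lists chosen for their known roles. Some loci of the core autophagy, transport, reference and fibroblast marker lists join several gene names, as at *Mief1*. Their counts are not of the listed gene alone. The counts of each list are to be read beside the shares over all loci tested, 28.4% higher and 29.6% lower. Of the list of other fusion and fission proteins, 18 of 21 genes were tested, 9 were higher (50%), 5 were lower (27.8%) and 4 did not pass (median log2 fold change 0.09). *Opa1*, the inner membrane fusion GTPase, had 88.5, 84.8 and 95.8 CPM after Scr and 91, 82.3 and 97.7 CPM after Yme1l siRNA, with a change of 0.01 on the log2 scale (edgeR's adjusted p = 0.930). *Oma1*, which encodes the stress-activated OPA1 protease, was lower, with 7.64 ± 1.09 CPM after Scr and 5.59 ± 0.439 CPM after Yme1l siRNA (mean ± SD, n = 3), which is -0.45 on the log2 scale (edgeR's adjusted p = 0.0261). The 3 genes of this list with the smallest adjusted p were higher, namely *Afg3l2*, a subunit of the matrix-side m-AAA protease (0.73), *Phb*, a prohibitin of the inner membrane (0.79), and *Mtfr2*, a fission regulator (1.23), each with an adjusted p of at most 0.000181 (edgeR).

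Among mitophagy receptors and genes of the ubiquitin pathway, 22 of 24 were tested, 5 were higher (22.7%), 8 were lower (36.4%) and 9 did not pass (median -0.03). *Bnip3*, a receptor induced by hypoxia, had 132, 119.6 and 116 CPM after Scr and 54.0, 50.7 and 63.2 CPM after Yme1l siRNA. All its Yme1l siRNA libraries were below its Scr libraries, and the change was -1.13 (edgeR's adjusted p = 3.87e-05). Its relative *Bnip3l*, which encodes NIX, changed by -0.66 (standard error 0.06) and the receptor *Fkbp8* by -0.81 (standard error 0.07), both without overlap between the groups. *Pgam5*, the phosphatase that acts on FUNDC1, was higher, with 38.4 ± 2.91 CPM after Scr and 72.6 ± 1.69 CPM after Yme1l siRNA (mean ± SD, n = 3), a change of 0.92. *Sqstm1*, which encodes the adaptor p62, had a change of 0.21 that did not pass (edgeR's adjusted p = 0.144).

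Of 30 core autophagy genes, 29 were named in the count table and 28 were tested. Of those tested, 4 were higher (14.3%), 15 were lower (53.6%) and 9 did not pass (median -0.24). The 3 with the smallest adjusted p were *Ulk2* (-1.02) and *Ulk1* (-0.77), kinases that start autophagy, and *Atg7* (-0.97), the E1-like enzyme of lipidation. Among 11 genes of mitochondrial transport, 2 were higher (18.2%) and 5 were lower (45.5%), with a median of -0.33. Those with the smallest adjusted p were *Armcx3* (-0.88), *Snph* (1.83, from only 0.563 ± 0.130 CPM after Scr) and *Myo19* (0.65). Of 19 enzymes and anchors that modify DRP1, 18 were tested, 6 were higher (33.3%) and 4 were lower (22.2%), with a median of -0.03. *Camk2d* (-0.87) and *Ppp3ca* (-0.55), which encode a calcium-dependent kinase and the catalytic subunit of calcineurin, were lower, whereas *Cdk1*, the mitotic kinase that phosphorylates DRP1, was higher (0.58).

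Mitochondrial genes often used as a reference for content did not fall together. Of 18 genes for the outer membrane, the matrix and the cristae, 5 were higher (27.8%), 3 were lower (16.7%) and 10 did not pass (median 0.13). Over all loci tested, 28.4% were higher and 29.6% were lower. *Hspa9*, the matrix chaperone mtHsp70, was higher (0.84), and the import receptors *Tomm22* (-0.95) and *Tomm20* (-0.45) were lower. The cells carried the transcripts of fibroblasts except *Thy1*, which had at most 1 count in a library. Of 14 fibroblast markers, 13 were tested, 10 were lower after Yme1l siRNA and 0 were higher (median -0.72), and their summed level was 36575 to 42366 CPM (on the unscaled library size) in Scr and 20511 to 25614 in Yme1l siRNA libraries. The summed level of 8 macrophage and leukocyte markers was 192 to 199 CPM in Scr and 281 to 290.3 in Yme1l siRNA libraries, mostly from *Csf1r*, *Cd68* and *Cd14*, with *Ptprc*, *Adgre1*, *Itgam* and *Fcgr1* at 3 counts or fewer in each library. Of the 4 tested, only *Csf1r* was higher (0.74), whereas *Cd68* (-0.13), *Cd14* (0.08) and *Lyz2* (-0.34) did not pass. The 5 endothelial markers summed to 3.63 to 4.10 CPM in Scr and 5.86 to 8.01 CPM in Yme1l siRNA libraries. Of the 3 tested, 2 were higher, *Kdr* (2.57, from only 3, 9 and 7 counts after Scr) and *Tek* (0.61), and *Pecam1* did not pass. The 5 epithelial markers, none of which was tested, summed to 0.0885 to 0.188 CPM in Scr and 0.218 to 0.546 CPM in Yme1l siRNA libraries. The part of these markers in the changes of the 10 genes was not tested.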

How the data were processed

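RNA-Seq libraries of WT MEFs, 3 Scr and 3 Yme1l siRNA cultures, were grouped by their labels, and 0 per-sample columns were left unmapped. Per the methods and the labels, the authors mapped reads to GRCm38 with HISAT2 2.0.4, assembled transcripts with StringTie 1.3.3 and compared groups with Cuffdiff 2.2.1 of Cufflinks. The counts per locus are those the authors deposited, without normalization. The program that counted, its use of strand and its treatment of reads that match several places are not given in the sources used here. The FPKM values that the authors deposited are group values, scaled by their program, with the 3 libraries combined. The other columns of that table hold the authors' own comparison and were not used.

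TMM factors were computed with edgeR 4.0.16 (limma 3.58.1, R 4.3.3), followed by a quasi-likelihood test without covariates on the 14499 loci that filterByExpr kept (minimum of 10 counts, 15 in total), with Benjamini-Hochberg adjustment over all of them and a threshold of 0.05. CPM are relative to the TMM-scaled library. Standard errors were derived from the log2 fold change and the F statistic of the same test. The 95% intervals were derived from these standard errors and the degrees of freedom of the test. Chi-square tests of counts between libraries of the same group gave 9.99 to 73.8 per degree of freedom, so each library was taken as a separate sample. Per-library log2 ratios of counts were compared by exact permutation in scipy 1.17.1. Coordinates and exon lengths came from the GRCm38 annotation GENCODE M21, near-identical transcripts from BLAST 2.17.0 (at least 90% identity over at least 50% of a transcript) and promoters from RefSeq GRCm38.p6. The fit was also run on simulated counts with the same dispersion at every locus and far fewer changed loci than were called here. That run therefore does not show how the fit performs on these data.

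The 10 genes and all lists were chosen with earlier results of these data known. All 10 genes, *Yme1l1*, the 3 called genes of each other list with the smallest adjusted p, and *Opa1*, *Oma1*, *Sqstm1*, *Bnip3* and *Bnip3l* were named whatever their result, and 1 further gene of this rule is not reported here. Genes that share exons or sequence with one of the 10 were named beside it. The markers named were chosen after their values were seen. Alternatives were other scale factors, DESeq2 1.42.0, limma-voom, other filters on low counts, a threshold of 0.01, a replicate block and the omission of single libraries. Python 3.11.15 with numpy 2.4.6, pandas 2.3.3 and matplotlib 3.10.9 made the tables and figures.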

Additional observations from a re-analysis of the deposited data

How the results depend on the processing

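No result on the 10 genes changed direction among those called, and none of the 10 genes was called higher under any alternative run. Of 150 results for single genes of the 10 under the alternatives, 12 lost their call, 8 at *Mief2* and 4 at *Fis1*. *Mief2* lost it with upper-quartile factors (adjusted p = 0.0509 from edgeR), without scaling beyond library size (0.0845), with a mean of at least 50 counts (0.0523), at a threshold of 0.01 and without each of 4 libraries. *Fis1* lost it without scaling beyond library size (0.0749), at a threshold of 0.01 and without each of 2 libraries. The cause was not tested. *Mfn2*, which was never called, had log2 fold changes from -0.05 to 0.09. The number of lower genes among the 10 was from 4 to 6 over all alternatives, and 4 to 6 when 1 library was left out. Over all loci the counts were 2949 higher and 3225 lower at a threshold of 0.01. Scaling by library size alone shifted the median of all loci most among the scalings, by 0.06 on the log2 scale, and gave 4589 higher and 3696 lower loci. Leaving out 1 library kept the direction of all 5 ratios. The median of the DRP1 modifier list was 0.01 without Yme1l siRNA replicate 2, and the other 47 list medians kept their sign. With 1 library left out, the median of the fusion and fission partner list was from 0.06 (without Yme1l siRNA replicate 3) to 0.15 (without Scr replicate 2, and also without Yme1l siRNA replicate 2), that of the reference list from 0.03 (without Yme1l siRNA replicate 3) to 0.19, that of the transport list from -0.37 to -0.22 (without Scr replicate 3), that of the core autophagy list from -0.27 to -0.20 and that of the mitophagy list from -0.05 to -0.02. Libraries with the same replicate number deviated together only weakly (correlations of 0.04, 0.12 and 0.19), and the labels tie no number to a shared day. With the replicate number as a block, the same counts of 6 lower and 0 higher genes among the 10 were found, with a log2 fold change of -2.40 for *Yme1l1*, and over all loci 4227 higher and 4460 lower. With 3 cultures per group, the intervals of *Mfn1*, *Mfn2*, *Mief1* and *Mtfp1* limit what can be said of them.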
